A study of Mus musculus with 9 samples.

Results

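The spliceosomal and splicing regulator genes of the SRSF, hnRNP, SF3A, SF3B and SNRP families were followed in mouse macrophages that received bacterial lipopolysaccharide, with or without an inhibitor of ATP-citrate lyase. Members were taken by name alone: every listed gene whose Ensembl identifier maps to a symbol that starts with Srsf, Hnrnp, Sf3a, Sf3b or Snrp, pseudogenes named with -ps left out. This gave 51 of the 12204 listed genes. The rule uses no measured value, though it was chosen with earlier results of these data known. They divide into 10 SR proteins, 20 hnRNP proteins, 9 subunits of SF3A and SF3B, 7 Sm core proteins, 4 proteins specific to the U1 or U2 particle, and Snrpert. Snrpert is annotated as a processed pseudogene, and its last bases closely match sequence of Snrpe. Of 53 annotated genes with such names, Snrpn and Srsf12 were not among the listed genes.

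Introns are removed by the spliceosome, which is built from small nuclear ribonucleoproteins (snRNPs). Each snRNP carries a ring of Sm proteins around its RNA. The U1 snRNP recognises the start of an intron, and the U2 snRNP, with its SF3A and SF3B subcomplexes, settles on the branch point near its end. SR proteins bind exons and usually favour their inclusion, while hnRNP proteins coat nascent RNA and often have the opposite effect. In macrophages the response to Toll-like receptors is known to include changes of alternative splicing, and hnRNP M has been described in mouse macrophages as a brake on the processing of inflammatory transcripts. The reads measured here come from transcript 3′ ends, so they give the amount of each splicing factor's messenger RNA and not any splicing event.

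Bone marrow of C57/Bl6J mice was grown into macrophages for 6 days in medium with 20% supernatant of L929 cells, which secrete macrophage growth factor. The BMS303141 + LPS group received 50 µM BMS303141, an inhibitor of the acetyl-CoA-producing enzyme ATP-citrate lyase, for 1 h and then 10 ng/ml LPS (lipopolysaccharide, the ligand of Toll-like receptor 4) for 4 h. The LPS group received 10 ng/ml LPS for 4 h, and the untreated group neither agent. Each group had 3 libraries. An inhibitor-only group and a named vehicle are absent from the labels. Nothing says that replicates are separate animals or cultures, so p-values measure the spread between these libraries only, which may be technical.

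Levels are log2 CPM, reads scaled to a common library total and put on a base-2 logarithm, as deposited. A 3′ read is taken once per transcript, so no length correction was made between genes. Levels of different genes are set side by side as shares of reads only. They remain uncertain where 3′ sequence matches or overlaps another gene. Differences are given on the same log2 scale from limma, with adjustment over all 12196 genes tested, and a gene is called at an adjusted p under 0.05. Value steps gave approximate depths of 3.47 to 3.69 M reads with BMS303141 + LPS, 1.80 to 3.20 M with LPS and 3.29 to 4.91 M in untreated cells. LPS replicate 1, the shallowest library, stood apart on the second principal component, and 19 of 51 members lay more than 0.5 log2 from the mean of the other LPS libraries there, against 0 to 9 in the other 8 libraries. The median absolute deviation of LPS replicate 1 was 0.39 over the members and 0.37 over all genes tested. The LPS response itself was present: Tnf averaged 9.38 log2 CPM with LPS and 3.22 in untreated cells. Summed over 8 macrophage markers, all listed, levels ran from 4746 to 4830 CPM with BMS303141 + LPS, from 3987 to 4866 CPM with LPS and from 8007 to 8683 CPM in untreated cells. The markers did not move together. Cd14 averaged 9.48, 8.84 and 7.04 log2 CPM in that order of groups and Adgre1 7.30, 7.43 and 7.37. The other macrophage markers had their highest mean in untreated cells. Of 8 neutrophil markers 2 were listed, S100a8 at means of 7.75, 5.46 and 3.30 log2 CPM and S100a9 at 0.87, 0.39 and 0.82 in the same order of groups; together they ran from 172 to 264 CPM, 33.9 to 60.9 CPM and 7.8 to 29.6 CPM. The 6 listed mitochondrial transcripts, taken as a sign of RNA quality, summed to 3675 to 4077 CPM with BMS303141 + LPS, 2756 to 3686 CPM with LPS and 3999 to 5041 CPM untreated. The part of any of these in the results below was not tested. Dendritic cell and erythroid markers were not listed. Of the mast cell and basophil markers only Hdc was listed, at means of 6.12 log2 CPM with BMS303141 + LPS, 6.82 with LPS and 1.26 untreated. Listed lymphocyte and stromal markers summed to at most 8.7 and 15.3 CPM in any library. The part of these was not tested either. Acly, which encodes ATP-citrate lyase, differed by -0.09 between BMS303141 + LPS and LPS (adjusted p = 0.802), a value that does not give the activity of the enzyme.

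All 51 members passed the filter on low values, and most were abundant. The mean level lay above the median listed gene for 48 members, the exceptions being Snrpert, Snrpg and Hnrnpa1. Among Sm proteins the highest was Snrpd3, with 8.90, 8.87 and 8.98 log2 CPM in the BMS303141 + LPS libraries, 9.85, 9.03 and 9.14 in the LPS libraries, and 9.09, 9.35 and 9.62 in the untreated ones. Its LPS replicate 1 was the highest of all 9 libraries, while the BMS303141 + LPS libraries were the lowest 3. Snrpb2, the B″ protein of the U2 particle, led the particle-specific proteins with 6.84, 6.95 and 6.82 with BMS303141 + LPS, 6.55, 7.12 and 6.99 with LPS, and 7.15, 6.84 and 6.65 untreated, and its groups overlapped throughout. Srsf5 led the SR proteins with 7.69, 7.63 and 7.77 with BMS303141 + LPS, 7.84, 7.47 and 7.56 with LPS, and 7.28, 7.62 and 7.78 untreated, again with overlapping groups. Within a role, neighbours often lay closer than their spread, as in untreated cells Srsf9 (6.15 ± 0.22) and Srsf2 (6.08 ± 0.09; SD, n = 3 each).

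**Figure D1:**
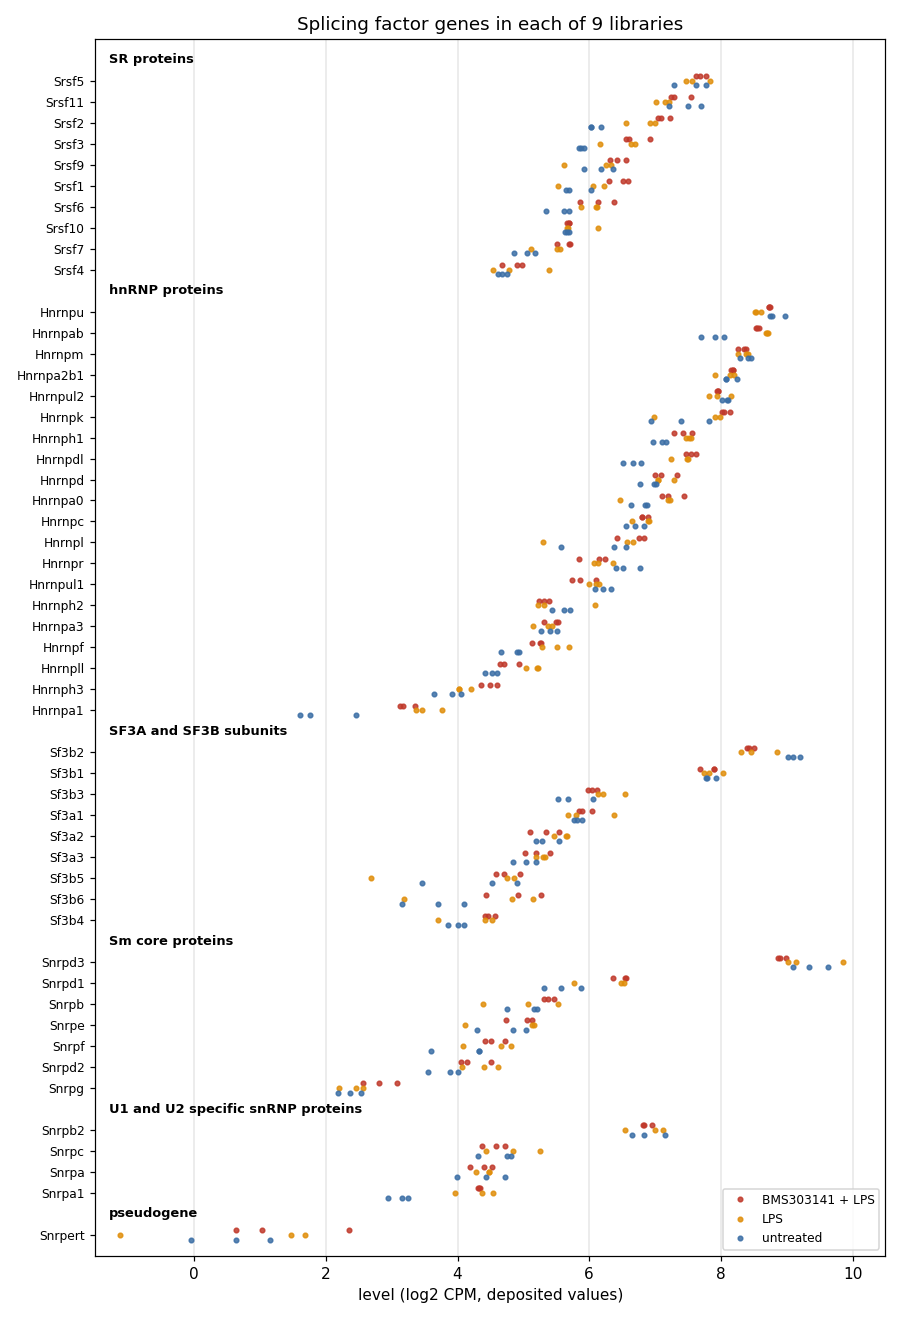
Level of each of the 51 members in each of the 9 libraries, in log2 CPM on the horizontal axis, with members grouped by role and ordered by mean level; each point is 1 library, with BMS303141 + LPS above LPS and untreated in each row. Snrpd3, Sf3b2 and Hnrnpu are the highest of their roles, and Hnrnpa1, Snrpa1, Srsf2 and Hnrnpdl are members whose untreated points sit apart to the left.

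Added over the 10 SR genes, the level was 995, 998 and 983 CPM in the BMS303141 + LPS libraries, 857, 873 and 887 CPM in the LPS libraries, and 757, 821 and 761 CPM in the untreated ones. The 20 hnRNP genes together stood at 3074, 3122 and 3124 CPM with BMS303141 + LPS, 2906, 3073 and 3031 CPM with LPS, and 2794, 2793 and 2598 CPM untreated. The sum of the SF3A and SF3B genes was 819, 862 and 896 CPM with BMS303141 + LPS, 969, 873 and 866 CPM with LPS, and 1003, 999 and 1045 CPM untreated. The 7 Sm genes summed to 688, 694 and 709 CPM with BMS303141 + LPS, 1066, 740 and 778 CPM with LPS, and 716, 794.5 and 911 CPM untreated. The 4 genes specific to the U1 and U2 particles summed to 178, 192 and 175 CPM with BMS303141 + LPS, 167, 213 and 192 CPM with LPS, and 201, 159 and 161 CPM untreated. The untreated libraries were the lowest 3 for the SR and hnRNP sums and the highest 3 for the SF3 sum, and LPS and untreated libraries overlapped in the sums of the Sm and the particle-specific genes. Sf3b2 makes up a large part of the SF3 sum, while 7 of the 9 SF3 genes had a difference above 0 in LPS against untreated (median 0.23). In bulk RNA a change in a sum cannot be divided between cells of a kind and RNA per cell.

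LPS against untreated cells asks which splicing factor transcripts moved in the early inflammatory response. After LPS 13 members were higher and 3 lower, among them the SR genes Srsf2, Srsf3 and Srsf6, the hnRNP genes Hnrnpa1, Hnrnpab and Hnrnpdl and the U2 gene Snrpa1 on the higher side, and Sf3b2, Hnrnpr and Hnrnpu on the lower. Of all genes tested 21.5% were higher and 25.4% lower, so the 25.5% of members called higher are close to the background and the 5.88% called lower are below it. Changes were small: the median size of the difference was 0.22 over the members and 0.60 over all genes, and the signed medians were 0.17 and -0.06. The median distance from a difference to either end of its 95% interval was 0.34 over the members and 0.51 over all genes. Most members were abundant, and genes of like level were not compared. The members' signed median was 0.10 without LPS replicate 3 and 0.29 with centring on ribosomal protein genes. Only Hnrnpa1 and Snrpa1 differed by more than 2-fold. Centring each library on 75 ribosomal protein genes shifts the median of all genes by 0.117 and leaves 14 members higher and 0 lower.

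**Figure D2:**
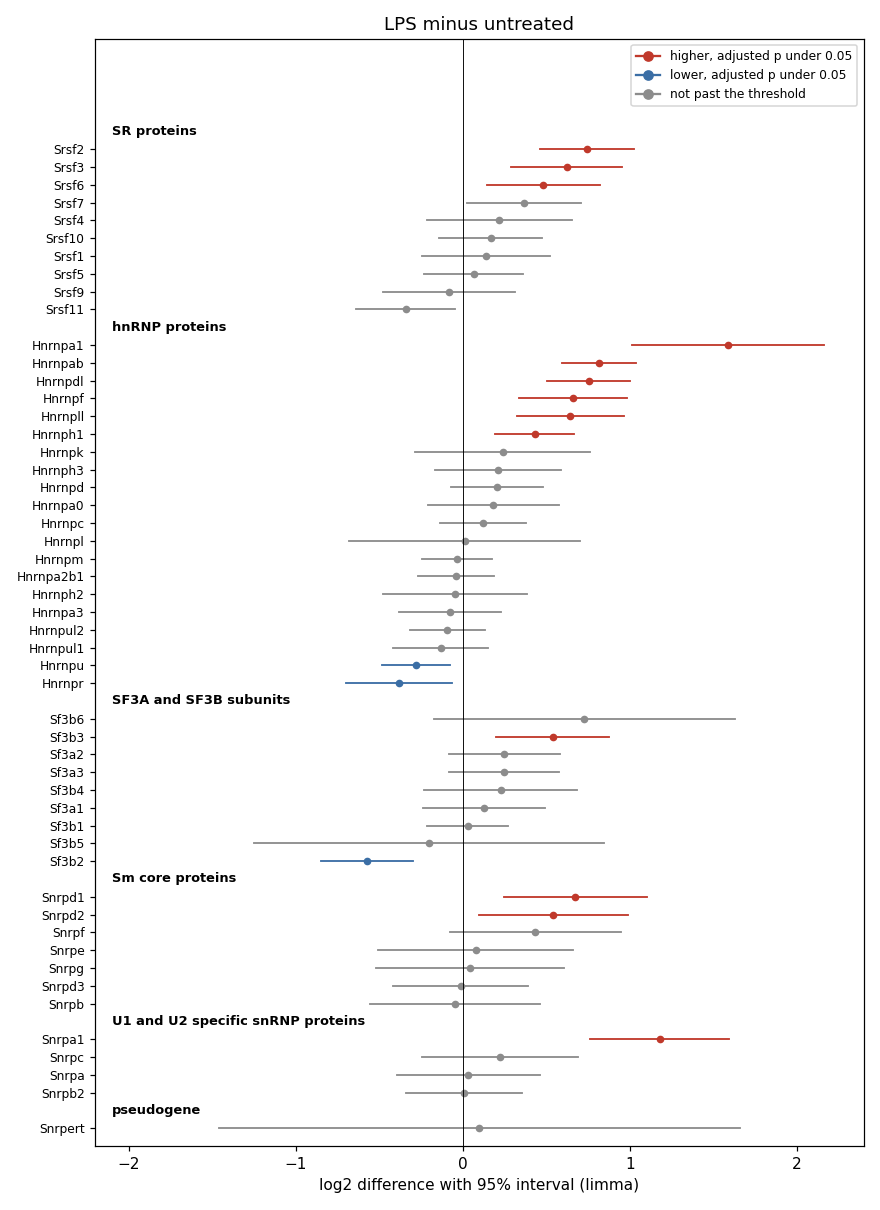
LPS minus untreated for each member, as the log2 difference (point) with its 95% interval (line) from limma, n = 3 libraries per group; red marks members called higher, blue members called lower and grey the rest. Hnrnpa1 at 1.59 and Snrpa1 at 1.18 are the furthest to the right and Sf3b2 at -0.57 the furthest to the left.

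Of the 10 SR genes, 3 were higher after LPS and 0 lower. Srsf2 encodes SC35, an exon-binding regulator found in nuclear speckles. Its levels were 7.22, 7.05 and 7.09 log2 CPM with BMS303141 + LPS, 6.56, 6.99 and 6.92 with LPS, and 6.18, 6.03 and 6.03 in untreated cells. Every LPS library was above every untreated one, and LPS exceeded untreated by 0.74 (SE 0.13, adjusted p = 0.000386). Srsf3, the smallest SR protein and also an adaptor for mRNA export, was at 6.56, 6.93 and 6.60 with BMS303141 + LPS, 6.17, 6.70 and 6.64 with LPS, and 5.84, 5.93 and 5.87 untreated. Its untreated libraries were the lowest 3, and the LPS difference was 0.62 (SE 0.15, adjusted p = 0.00481). Srsf6 averaged 6.13 ± 0.26 with BMS303141 + LPS, 6.03 ± 0.13 with LPS and 5.55 ± 0.19 untreated (SD, n = 3 each), with LPS higher by 0.48 (adjusted p = 0.0221); leaving out LPS replicate 3 or untreated replicate 1 ended this call (0.45, adjusted p = 0.0705, and 0.38, adjusted p = 0.0888). Srsf7 and Srsf11, not called with all libraries (0.37 and -0.34), were called without LPS replicate 1, Srsf7 at 0.51 (adjusted p = 0.0111) and Srsf11 at -0.39 (adjusted p = 0.0381). Srsf11 was also called without untreated replicate 3, at -0.47 (adjusted p = 0.0129).

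The hnRNP genes held 6 higher and 2 lower members of 20 after LPS. Hnrnpa1 encodes an abundant nuclear RNA-binding protein that often promotes exon skipping. It was at 3.13, 3.17 and 3.36 log2 CPM with BMS303141 + LPS, 3.76, 3.37 and 3.46 with LPS, and 1.76, 1.61 and 2.46 untreated. The untreated libraries lay far below the others and the LPS difference was 1.59 (SE 0.27, adjusted p = 0.000269), although the lowest library rests on about 11.7 reads. Hnrnpab, which binds AU-rich RNA, was at 8.53, 8.57 and 8.55 with BMS303141 + LPS, 8.69, 8.71 and 8.70 with LPS, and 8.04, 7.91 and 7.70 untreated, so that no library of LPS overlapped with an untreated one. Its LPS difference of 0.81 (SE 0.10, adjusted p = 2.32e-05) had the smallest p of all members. Hnrnpdl, a relative of the mRNA decay factor hnRNP D, was at 7.54, 7.62 and 7.47 with BMS303141 + LPS, 7.25, 7.50 and 7.49 with LPS, and 6.78, 6.52 and 6.67 untreated. All treated libraries were above all untreated ones, and LPS was higher by 0.76 (SE 0.12, adjusted p = 0.000123).

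Hnrnpf and Hnrnph1, which encode related binders of G-rich RNA, were higher after LPS by 0.66 (adjusted p = 0.00277) and 0.43 (adjusted p = 0.00557). Hnrnpll, known for its control of Cd45 splicing in lymphocytes, averaged 4.76 ± 0.15 with BMS303141 + LPS, 5.16 ± 0.10 with LPS and 4.52 ± 0.09 untreated (SD, n = 3 each), with LPS higher by 0.64 (adjusted p = 0.00302). Hnrnpr was at 6.25, 5.85 and 6.15 with BMS303141 + LPS, 6.36, 6.07 and 6.13 with LPS, and 6.41, 6.51 and 6.78 untreated. Its untreated libraries were the highest 3, and LPS was lower by -0.38 (adjusted p = 0.0469), a call that ended in 6 of 9 fits that leave out 1 library (adjusted p up to 0.169, without untreated replicate 3). Hnrnpu, a nuclear matrix and chromatin-associated RNA binder, was at 8.73, 8.73 and 8.74 with BMS303141 + LPS, 8.61, 8.51 and 8.53 with LPS, and 8.75, 8.97 and 8.77 untreated. Only its LPS libraries stood below the rest; the difference of -0.28 (adjusted p = 0.0266) lost its call without untreated replicate 2 (-0.21, adjusted p = 0.13) and without LPS replicates 2 or 3. Hnrnpm, the gene with a described role in macrophages, was at 8.36, 8.26 and 8.38 with BMS303141 + LPS, 8.42, 8.38 and 8.25 with LPS, and 8.28, 8.42 and 8.46 untreated, and it was called in neither comparison with untreated cells. Without LPS replicate 1, Hnrnpk (0.56, adjusted p = 0.0182) and Hnrnpa0 (0.43, adjusted p = 0.0106) were called higher after LPS, against 0.24 and 0.18 with all libraries.

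**Figure D3:**
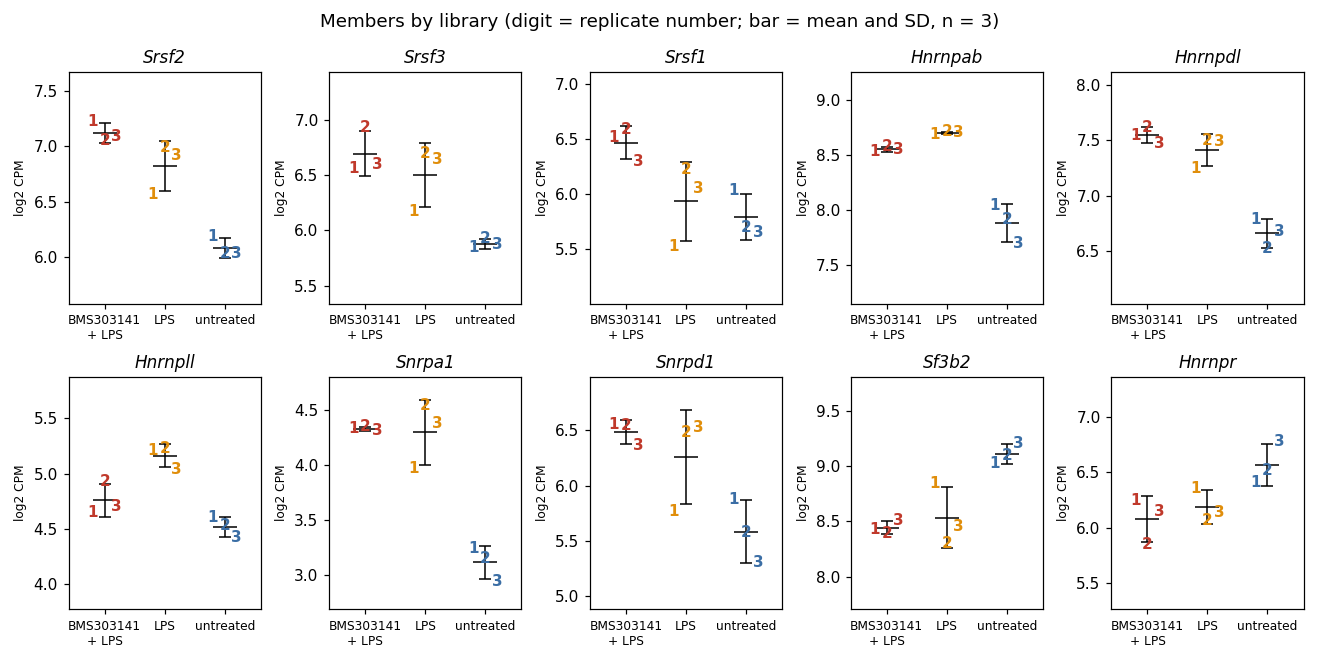
Level in log2 CPM of 10 members in BMS303141 + LPS, LPS and untreated libraries; each digit is the replicate number of 1 library, and the bars give the mean and SD (n = 3). For Srsf2, Srsf3, Hnrnpab, Hnrnpdl and Snrpa1 all untreated libraries lie below all others, and for Sf3b2 and Hnrnpr above them; LPS replicate 1 is the lowest of its group for Srsf2, Srsf3, Srsf1, Hnrnpdl, Snrpa1 and Snrpd1.

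Promoters of some called members are shown as examples. The motif search covered all members with a matched window, called or not. The windows are the 250 bases before the RefSeq start on GRCm38.p6, 5′ to 3′ on the gene's strand, for members whose window held no annotated exon, or, for Srsf2, the 200 bases nearest the start. Capitals mark the CCAAT box and the GC box GGGCGG on either strand, so that CCGCCC and ATTGG are the same motifs read in reverse. Srsf2 lies at chr11:116853095-116853294 (minus strand), Hnrnpab at chr11:51606882-51607131 (minus), Hnrnpa1 at chr15:103240147-103240396 (plus) and Hnrnpr, on the lower side, at chr4:136310692-136310941 (plus).
Srsf2: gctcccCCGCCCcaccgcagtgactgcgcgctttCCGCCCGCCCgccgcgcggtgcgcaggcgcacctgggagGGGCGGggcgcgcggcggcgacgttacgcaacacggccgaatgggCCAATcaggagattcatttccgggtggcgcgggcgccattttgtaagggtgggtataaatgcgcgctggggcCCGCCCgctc
Hnrnpab: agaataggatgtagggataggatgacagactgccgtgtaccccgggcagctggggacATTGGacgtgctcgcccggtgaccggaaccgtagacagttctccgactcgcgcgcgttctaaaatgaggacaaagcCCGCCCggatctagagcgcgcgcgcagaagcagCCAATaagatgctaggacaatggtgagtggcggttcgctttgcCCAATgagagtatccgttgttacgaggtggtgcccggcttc
Hnrnpa1: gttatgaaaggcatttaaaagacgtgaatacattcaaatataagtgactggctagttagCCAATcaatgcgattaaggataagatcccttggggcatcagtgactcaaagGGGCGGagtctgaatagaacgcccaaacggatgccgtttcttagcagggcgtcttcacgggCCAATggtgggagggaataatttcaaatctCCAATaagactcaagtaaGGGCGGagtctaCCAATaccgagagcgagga
Hnrnpr: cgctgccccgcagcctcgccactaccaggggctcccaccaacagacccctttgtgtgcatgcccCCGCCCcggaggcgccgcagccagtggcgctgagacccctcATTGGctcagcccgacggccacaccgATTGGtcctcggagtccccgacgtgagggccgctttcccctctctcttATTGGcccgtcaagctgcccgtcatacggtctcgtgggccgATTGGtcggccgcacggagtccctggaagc
The Srsf2 window held 5 GC boxes, of which a pair overlap, and 1 CCAAT box. Hnrnpab had 3 CCAAT boxes and 1 GC box, Hnrnpa1 4 and 2, and Hnrnpr 4 and 1, so both motifs stood before genes of either direction.

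RefSeq windows of 250 bases were matched for 44 of the 51 members, and 33 of them overlap an annotated exon of the same or another gene. For a member the RefSeq start nearest its annotated gene start was taken, and for a listed gene the most upstream start. The shares of members and listed genes are therefore not strictly like for like. On either strand, the GC box was present in 70.5% of member windows and 60.7% of those of 8171 listed genes, and CCAAT in 45.5% and 36.7%. The ETS motif CCGGAAG was present in 34.1% of member windows, among them those of Sf3a1, Sf3a2, Sf3a3, Sf3b2, Sf3b3 and Sf3b6, and in 15.8% of listed genes. TATAAA was found in 11.4% and 6.1%, the E-box CACGTG in 6.8% and 9.0%, and the cyclic AMP element TGACGTCA in 4.5% and 2.9%. An interferon-stimulated response element, TTTC repeated after any pair of bases, was in 0 of 44 member windows and 2.9% of listed genes, the NF-kB consensus in 0 of 44 and 8.6%, and the NRF1 motif, GCGCA directly followed by TGCGC, in 0 of 44 and 1.8%. Median GC content was 60.6% in member windows and 60.0% in those of listed genes. A match describes letters only, and no match says only that these letters are absent from the window.

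Among the SF3 subunits, 1 of 9 was higher and 1 lower after LPS. Sf3b2, which contacts RNA near the branch point within SF3B, was at 8.43, 8.39 and 8.51 log2 CPM with BMS303141 + LPS, 8.85, 8.31 and 8.46 with LPS, and 9.02, 9.10 and 9.21 untreated. The untreated libraries were the highest 3 and LPS was lower by -0.57 (SE 0.13, adjusted p = 0.00232). This call held without each library, with differences from -0.73 to -0.46, and ended with centring on ribosomal protein genes (-0.46, adjusted p = 0.0791). Sf3b3, a scaffold subunit of SF3B, averaged 6.04 ± 0.07 with BMS303141 + LPS, 6.30 ± 0.22 with LPS and 5.76 ± 0.27 untreated (SD, n = 3 each), with LPS higher by 0.54 (adjusted p = 0.0124); without untreated replicate 2 the difference was 0.43 (adjusted p = 0.0662). Sf3b1, the large subunit often mutated in human blood cancers, differed by 0.03 after LPS, with a 95% interval from -0.21 to 0.27.

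Sf3b6, the small subunit that touches the branch-point adenosine, was at 4.92, 5.27 and 4.44 log2 CPM with BMS303141 + LPS, 3.18, 5.15 and 4.82 with LPS, and 3.71, 4.10 and 3.16 untreated. Its LPS replicate 1 lay among the untreated libraries while the other LPS libraries lay above them. It was not called after LPS with all libraries (0.73, 95% interval -0.17 to 1.63) and was called without LPS replicate 1 (1.33, adjusted p = 0.00116). BMS303141 + LPS was higher than untreated by 1.22 (SE 0.42, adjusted p = 0.0289), a call that ended in 4 of 9 fits that leave out 1 library, with adjusted p up to 0.113. Sf3b4 was likewise called after LPS without LPS replicate 1 (0.48, adjusted p = 0.0323, against 0.23 with all libraries), and with weights per library.

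Of the 7 Sm core genes, Snrpd1 and Snrpd2 were higher after LPS and 0 were lower. Snrpd1 was at 6.56, 6.54 and 6.36 log2 CPM with BMS303141 + LPS, 5.77, 6.48 and 6.52 with LPS, and 5.87, 5.57 and 5.31 untreated. LPS replicate 1 fell within the untreated range, and the difference of 0.67 (SE 0.20, adjusted p = 0.0132) lost its call without untreated replicate 3, LPS replicate 2 or LPS replicate 3 (adjusted p 0.0528 to 0.0664). Snrpd2, its partner in the Sm ring, was higher by 0.54 (adjusted p = 0.0457), and the call ended in 6 of 9 fits that leave out 1 library, with adjusted p up to 0.162. Snrpf, not called with all libraries (0.44), was called without LPS replicate 2 (0.65, adjusted p = 0.041) and with weights per library.

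Of the particle-specific proteins 1 of 4 was called. Snrpa1 encodes the A′ protein of the U2 particle, which binds the U2 RNA together with the product of Snrpb2. It was at 4.33, 4.34 and 4.31 with BMS303141 + LPS, 3.97, 4.54 and 4.38 with LPS, and 3.25, 3.16 and 2.95 untreated. All treated libraries were above all untreated ones, and LPS was higher by 1.18 (SE 0.19, adjusted p = 0.00023), with 1.06 to 1.34 when any library was left out. Snrpb2, its partner, differed by 0.01 with a 95% interval from -0.34 to 0.36, and the U1 genes Snrpa and Snrpc differed by 0.03 and 0.22 without a call.

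BMS303141 + LPS against LPS asks whether levels after LPS differ when BMS303141 was given first. With no inhibitor-only group and no named vehicle, inhibition of ATP-citrate lyase cannot be told apart from other effects of the compound or its solvent. None of the 51 members was called, higher or lower, in limma, whereas 0.959% of all genes were called higher and 1.16% lower. At an unadjusted p under 0.05 stood 5 members (9.8%), and 14.9% of all genes; the members' count was 1 without BMS303141 + LPS replicate 1, 2 without BMS303141 + LPS replicate 3, 3 without BMS303141 + LPS replicate 2, LPS replicate 1 or untreated replicate 2, 9 without LPS replicate 2 and 2 with centring on ribosomal protein genes. The median difference was 0.03 over members and 0.00 over all genes. Of the 51 intervals, 47 lay within 2-fold in both directions and 29 within 1.5-fold; those of Hnrnpl, Sf3b5, Sf3b6 and Snrpert reached 2-fold, so a change of that size is not bounded for them.

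**Figure D4:**
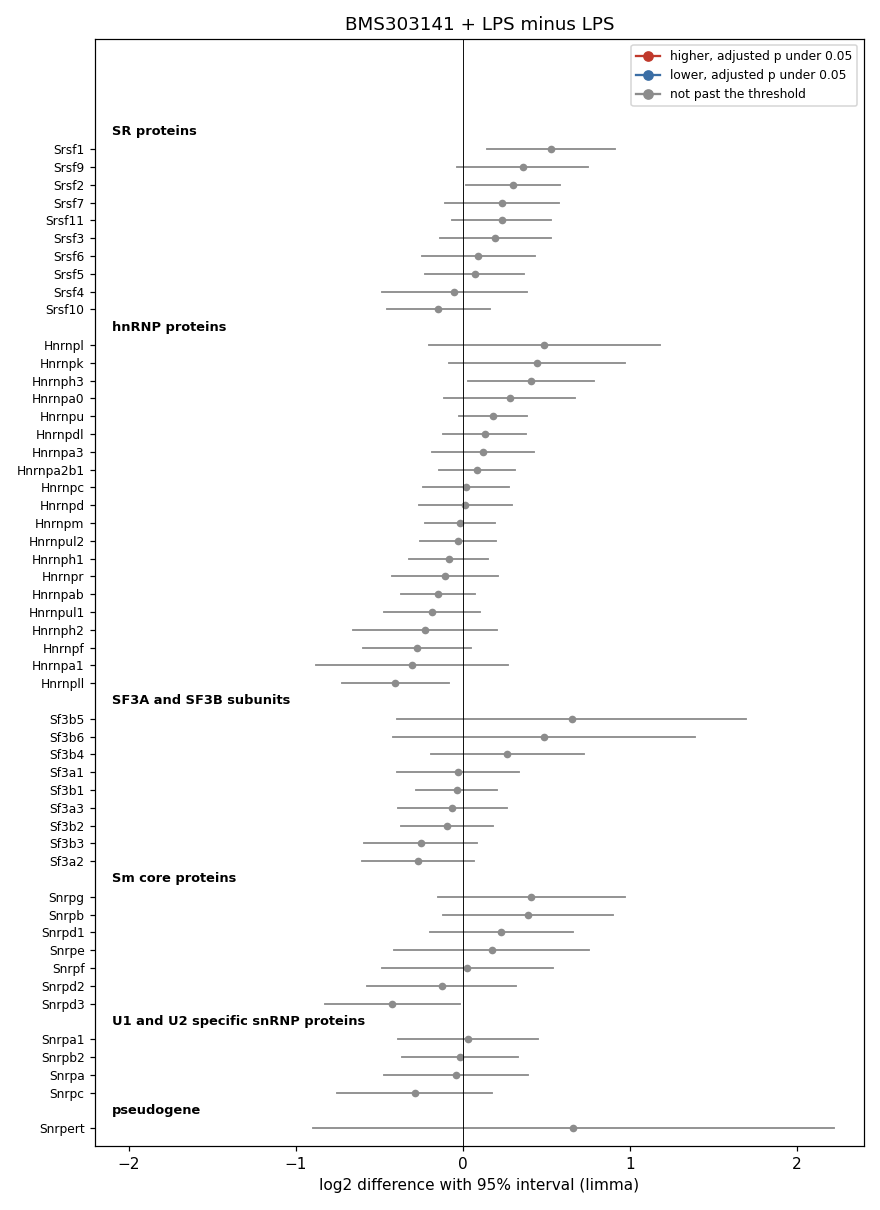
BMS303141 + LPS minus LPS for each member, as the log2 difference (point) with its 95% interval (line) from limma, n = 3 libraries per group; colours as for LPS minus untreated, with all 51 members grey. Srsf1 at 0.53 and Snrpd3 at -0.42 are among those whose interval leaves out 0.

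The 5 members with an unadjusted p under 0.05 were Srsf1, Hnrnph3, Srsf2, Hnrnpll and Snrpd3. Srsf1, which encodes the founding SR protein ASF/SF2, was at 6.52, 6.59 and 6.30 log2 CPM with BMS303141 + LPS, 5.53, 6.22 and 6.05 with LPS, and 6.03, 5.70 and 5.65 untreated. Its 3 BMS303141 + LPS libraries were the highest of the 9, with a difference from LPS of 0.53 (95% interval 0.15 to 0.91, adjusted p = 0.172). Leaving out 1 library gave differences of 0.33 to 0.67 and adjusted p of 0.102 to 0.421. Hnrnph3 differed from LPS by 0.41 (adjusted p = 0.3) and Srsf2 by 0.30 (adjusted p = 0.307). Below LPS stood Hnrnpll, by -0.40 (adjusted p = 0.222), and Snrpd3, by -0.42 (adjusted p = 0.313), and in both every BMS303141 + LPS library was under every LPS library. The SR genes had a median difference of 0.21 with 8 of 10 above 0, the hnRNP genes one of 0.00 with 10 of 20 above 0, and the SF3 genes one of -0.04 with 3 of 9 above 0; centring on ribosomal protein genes turns the sign of Srsf5 among the SR genes and of Hnrnpc and Hnrnpd among the hnRNP genes. For comparison, the same libraries gave 1.77 for Hmox1 (adjusted p = 6.54e-05) and -2.84 for Il12b (adjusted p = 0.00173).

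BMS303141 + LPS against untreated cells uses the same untreated libraries as LPS against untreated, so each comparison's values are given side by side. With BMS303141 + LPS 14 members were higher and 2 lower, where 21.5% of all genes were higher and 25.6% lower. SR genes were called in 5 of 10 cases, all higher: Srsf2 by 1.04 (against 0.74 for LPS), Srsf3 by 0.82 (0.62), Srsf1 by 0.67 (0.14), Srsf7 by 0.60 (0.37) and Srsf6 by 0.57 (0.48). The excess of each over LPS is the inhibitor comparison given above, which was not called for any of them. Among hnRNP genes the called differences were 1.28 for Hnrnpa1 (1.59 for LPS), 0.89 for Hnrnpdl (0.76), 0.68 for Hnrnpk (0.24), 0.67 for Hnrnpab (0.81), 0.62 for Hnrnph3 (0.21), 0.35 for Hnrnph1 (0.43) and -0.49 for Hnrnpr (-0.38). Snrpa1 was higher by 1.21 (1.18), Snrpd1 by 0.90 (0.67), and Sf3b2 lower by -0.67 (-0.57). Other members were called after LPS but not with BMS303141 + LPS. These were Hnrnpf at 0.38 (0.66 for LPS), Hnrnpll at 0.24 (0.64), Sf3b3 at 0.29 (0.54), Snrpd2 at 0.42 (0.54) and Hnrnpu at -0.10 (-0.28). Their inhibitor comparisons were not called either.

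Some of these calls did not hold in every fit that leaves out 1 library. Hnrnpk, a poly(C)-binding protein, lost its call in 5 of 9 fits that leave out 1 library (without untreated replicate 3 the difference was 0.46, adjusted p = 0.145), Hnrnph1 in 3 (0.28, adjusted p = 0.0934, without BMS303141 + LPS replicate 3), Hnrnpr in 2 (-0.37, adjusted p = 0.0781, without BMS303141 + LPS replicate 2) and Srsf6 in 1 (0.45, adjusted p = 0.0501, without BMS303141 + LPS replicate 3). Hnrnpa0 at 0.46 (adjusted p = 0.00313) and Sf3b4 at 0.49 (adjusted p = 0.0157) were gained without LPS replicate 1, whose spread enters the shared error of the fit. Snrpd3 became a lower call at -0.43 (adjusted p = 0.00502) in that fit.

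Several members were low together in LPS replicate 1 and in untreated replicate 3. Relative to the other libraries of its group, Sf3b5 was lower by -2.12 in LPS replicate 1 and by -1.26 in untreated replicate 3, Sf3b6 by -1.80 and -0.74, Hnrnpl by -1.32 and -0.89, Snrpe by -1.03 and -0.65, and Hnrnpk by -0.96 and -0.66. These were the 5 members below -0.5 in both libraries. Both deviations were below 0 for 22 members and above 0 for 18 of the 51. Across the 51 members they correlated at r = 0.672, a description over genes that share library preparation and depth. Over all 12196 genes tested the deviations of these libraries correlated at r = 0.294, so the shared shift was not limited to the members. With both libraries left out, a choice made after seeing the data, LPS against untreated had 17 members higher and 4 lower (22.6% and 25.6% of all genes), and BMS303141 + LPS against untreated 19 and 3 (23.5% and 26.4%). BMS303141 + LPS against LPS then had 0 members higher and 0 lower (2.18% and 2.21%). The part of depth or RNA handling in these deviations was not tested.

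**Figure D5:**
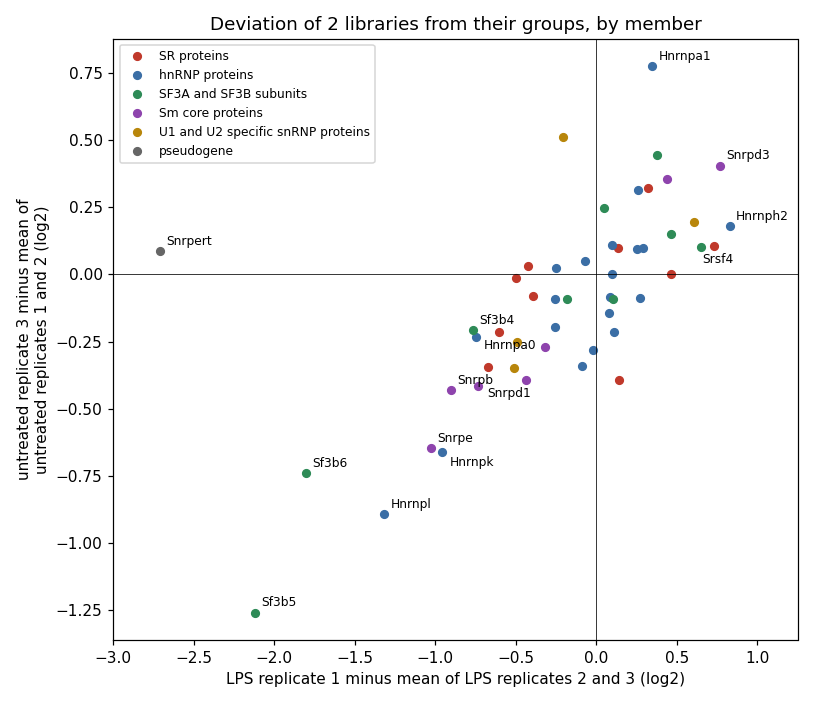
Deviation of LPS replicate 1 from the mean of the other LPS libraries (horizontal, log2) against that of untreated replicate 3 from the mean of the other untreated libraries (vertical, log2), each point 1 of the 51 members, coloured by role. Sf3b5, Sf3b6, Hnrnpl, Snrpe and Hnrnpk lie low on both axes, and 22 members lie below 0 on both.

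Other splicing genes were read from 8 lists that leave out the members. Of 149 tested, 32 were higher and 37 lower in LPS against untreated (21.5% and 24.8%, beside 21.5% and 25.4% of all genes). In BMS303141 + LPS against untreated 29 were higher and 31 lower (19.5% and 20.8%, beside 21.5% and 25.6%), and in BMS303141 + LPS against LPS 1 was higher and 1 lower (0.671% each, beside 0.959% and 1.16%). The SR-related proteins and SR kinases held 3 higher and 11 lower of 26 after LPS (11.5% and 42.3%). Srpk2, a kinase that phosphorylates SR proteins, averaged 4.23 log2 CPM with BMS303141 + LPS, 4.01 with LPS and 6.30 untreated, and fell by 2.29 after LPS (adjusted p = 4.93e-08), while Tra2b, an SR-like exon activator, was higher by 0.60 (adjusted p = 0.00258). PRPF and other spliceosome proteins had 1 higher and 8 lower of 31, with Prpf4b at -0.71 (adjusted p = 0.000239) and Bcas2 at -0.67 (adjusted p = 0.00862).

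Larger differences stood among the other RNA-binding splicing regulators, with 15 higher and 8 lower of 36 after LPS (41.7% and 22.2%). Celf2 averaged 6.11 with BMS303141 + LPS, 6.20 with LPS and 8.53 untreated, and Mbnl1, the muscleblind factor, 6.50, 6.53 and 8.83. After LPS they fell by 2.33 (adjusted p = 9.86e-10) and 2.30 (adjusted p = 2.3e-08). Pspc1, a paraspeckle protein, was higher by 1.29 (adjusted p = 1.56e-05) and Syncrip by 0.69 (adjusted p = 0.000295). The exon junction complex list had 4 higher and 5 lower of 17, with Magohb, a core subunit, at 1.81 (adjusted p = 9.86e-05) and Smg6, the endonuclease of nonsense-mediated decay, at -1.35 (adjusted p = 2.81e-05). The Snrnp-named list had 1 higher, Snrnp35 of the minor U11 and U12 particle at 1.71 (adjusted p = 4.47e-06), and 2 lower of 7; the U2AF list had 3 higher, among them Sf1 at 0.51 (adjusted p = 0.00256), and 1 lower of 9, Uhmk1 at -0.65 (adjusted p = 0.000742). LSm proteins had 3 higher and 1 lower of 10, with Lsm10 at 0.60 (adjusted p = 0.0214) and Lsm6 at -0.62 (adjusted p = 0.00257). Factors of snRNP assembly had 2 higher and 1 lower of 13, with Strap at 0.61 (adjusted p = 0.0173) and Prmt5, an arginine methyltransferase of Sm proteins, at -0.59 (adjusted p = 0.01). The genes called with the inhibitor were Rsrp1, at 6.77 with BMS303141 + LPS and 5.79 with LPS (difference 0.98, adjusted p = 0.0356), and Mbnl2, at 7.18 and 7.94 (-0.76, adjusted p = 0.00276).

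Annotation marks where 3′ reads of members may be shared. The last 300 spliced bases of each member were compared with whole transcripts of other genes on both strands. A match of at least 95% identity over 100 bases, anywhere in the other transcript, was found for 17 members. For 11 of them a matching gene is listed too. The matches include genes that overlap on the opposite strand, such as Mettl23 for Srsf2 and Phykpl for Hnrnpab, so they are not all look-alike 3′ ends. Hnrnpa3 has the most, with 33 such genes of which 12 are listed, and Hnrnpf has 4 listed. The counts of these, of Snrpe and Snrpert, and of others such as Hnrnpr, Hnrnpk and Hnrnph1 are uncertain. The last 1000 bases of 9 members overlap another gene, on the opposite strand for Srsf2 (Mettl23), Srsf4 (Gm12992), Snrpf (Ccdc38), Hnrnpab (Phykpl), Hnrnph3 (Rufy2) and Hnrnpu (Cox20), and on the same strand for Sf3a3, Hnrnpul2 and Snrpert; the strand setting of the counting is not given, so their reads cannot be told apart. Mettl23 differed by -0.05 after LPS (adjusted p = 0.903) and Phykpl by 0.00 (adjusted p = 0.998), where Srsf2 and Hnrnpab were higher. Gm6159, matching the called Hnrnpr, was lower by -0.68 (adjusted p = 0.0263). Setd1b (matching Hnrnph1) and Cox20 (over Hnrnpu) were not called, at -0.15 and -0.22. Of the Hnrnpf matches, Gm12435 and Gm14970 were higher (1.44 and 1.26), and Gm6430 and Gm7803 not called. Beside members not called, Rnf24 (Snrpert) moved by 3.02, Rufy2 (Hnrnph3) by -0.95 and Taok3 (Hnrnpa3) by -1.49, while Gm12696 (Hnrnpc) was not called. Other matches of Hnrnpa3 were called higher, namely Gm5641 (0.43), Gm14398 (0.83), Gm14730 (1.40), Gm6153 (1.66) and Gm6758 (1.00). The remaining listed matches of Hnrnpa3 were not called. Gm7964, matching Hnrnpk, was called higher by 0.52 (adjusted p = 0.021). The part of shared reads was not tested.

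A transcript annotated as a target of nonsense-mediated decay, the pathway through which many SR genes limit their own expression, was present for 24 of 50 protein-coding members (48.0%) and for 30.8% of 9940 listed protein-coding genes. It was present for 9 of 10 SR genes, all but Srsf10. The 3′ reads do not separate these transcripts from productive ones. On chromosome 5, Hnrnpd and Hnrnpdl lie 54638 bases apart on the same strand, and after LPS Hnrnpdl was higher by 0.76 while Hnrnpd differed by 0.20 without a call. Hnrnpll and Srsf7 lie 137745 bases apart on chromosome 17, Hnrnpll being called after LPS and Srsf7 not; the difference within either pair was not tested.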

How the data were processed

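RNA was made into QuantSeq 3′ mRNA libraries (forward kit, Lexogen) from 100 ng of total RNA with 16 PCR cycles, per the labels' protocols, and no molecular identifiers are named. Per the submitters' processing notes, the authors' tools included limma, edgeR and MultiQC beside STAR 2.5.2b and featureCounts 1.5.1, with GRCm38 (mm10); their roles are not given. The deposited score of each gene was read as log2 CPM, quantile-normalised over the 9 libraries, because the powers of 2 of each column sum to 987472 to 987498 and the sorted columns nearly match. Such scaling hides a change common to most transcripts. No counts were used here, so depths are approximate. Of 12204 identifiers, 12181 had a symbol.

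The 12196 genes that reached a log2 CPM of 0 in 3 or more libraries entered 1 model with 3 group means in limma 3.58.1 (R 4.3.3; two-sided moderated test, trended prior, Benjamini-Hochberg adjustment over all of them), in place of the count test that would have served counts. The steps were also run on simulated counts with known changes put into BMS303141 + LPS and read against LPS only. That simulation held no LPS response and no library deviating beyond its depth, so it does not show how the calls here hold. Coordinates and transcripts come from GENCODE M21, 3′ ends were compared with blastn 2.17.0, and promoter windows come from RefSeq. Members and lists were chosen with earlier results of these data known. Per-library values are given for up to 6 called members per direction with the largest differences and for the most abundant member of each role, and for further members of interest; of the other lists, the rule takes up to 2 called genes per list and direction with the smallest p, and the text names some of these, picked after their values were seen. Alternatives were the replicate number as a term, other filters, scalings, trends and weights, a 2-fold minimum, only the groups compared, and leaving out each library.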

Additional observations from a re-analysis of the deposited data

How the results depend on the processing

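No member was called in BMS303141 + LPS against LPS under any of the alternatives run, and no difference of a called member changed sign. Members called higher and lower in LPS against untreated, 13 and 3, came to 14 and 0 with centring on ribosomal protein genes, 11 and 1 without a mean trend, 12 and 1 with only the groups compared, and 2 and 0 with a 2-fold minimum; in BMS303141 + LPS against untreated, 14 and 2 came to 15 and 1 with that centring, 11 and 2 without a mean trend, 17 and 3 with only the groups compared, and 4 and 0 with a 2-fold minimum. Leaving out 1 library gave 10 to 18 higher and 1 to 4 lower in LPS against untreated, 11 to 17 and 1 to 4 in BMS303141 + LPS against untreated, and 0 to 0 in BMS303141 + LPS against LPS. The highest counts came without LPS replicate 1. Adding a replicate block changed the counts to 14 and 2, 15 and 2, and 0 and 0 in the same order. Deviations of same-numbered libraries correlated at r from -0.297 to 0.165 over genes. These values cannot decide whether the numbers pair the samples, since a small effect shared by a pair could go unseen. Weights per library gave 19 and 4, and 19 and 3. The edgeR quasi-likelihood test, planned for counts, was not run because the values are not counts. Depth limits low members such as Hnrnpa1, Snrpg and Snrpert most.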
